A study of Mus musculus with 7 samples.

Results

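The DLG, DLGAP and SHANK genes encode the layered protein scaffold under the membrane of excitatory synapses. The 10 genes described here are Dlg1, Dlg2, Dlg3, Dlg4, Dlgap1, Dlgap2, Dlgap3, Shank1, Shank2 and Shank3. They were chosen by gene symbol and not by a rule on their measured values, though earlier results of these data were known. The deposited table held 21965 genes, and each symbol matched 1 row. All 10 passed the filter on low counts. Polyadenylated RNA of mouse hippocampus was sequenced in 7 libraries. The 3 Control libraries are labelled as blank controls. The 4 NIHHL libraries are from the model of noise-induced hidden hearing loss, in which animals were exposed to noise of 110 dB for 2 h, and the tissue was taken 1 month later. The labels give no strain, genotype, sex or age. They also do not state whether libraries stand for different animals, and the spread behind every p-value may therefore be technical.

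In the postsynaptic density, DLG proteins sit closest to the membrane, where their PDZ domains hold NMDA receptors, adhesion proteins and the auxiliary subunits of AMPA receptors. DLGAP proteins, also called SAPAP or GKAP, bind the guanylate kinase-like domain of DLG proteins and, through their C-terminal end, the PDZ domain of SHANK proteins. SHANK proteins form the deeper layer and reach the actin cytoskeleton through Homer and cortactin. In the hippocampus this scaffold sets how many receptors a synapse can hold, and variants of several of its genes are known from autism, intellectual disability and compulsive behaviour.

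No scaffold gene passed the test for a difference between noise-exposed and control hippocampus. The fitted ratios of NIHHL to Control ran from 0.957-fold for Dlg1, which traffics AMPA receptors, to 1.03-fold for Shank2, a scaffold of the deeper layer. Of the 10 genes, 0 were called higher and 0 lower by edgeR's quasi-likelihood test (Benjamini-Hochberg adjusted p under 0.05). Adjusted p-values of the 10 genes by that test started at 0.996. Over all 14417 genes tested 0 were called as well (0%), so the count for the scaffold genes equals the background. At an unadjusted p under 0.05 there were 0 scaffold genes beside 523 of all genes (3.63%). DESeq2 also called 0 of the 10 at an adjusted p under 0.05, beside 4 of the 18177 genes to which it gave a p-value. The 95% intervals of the 10 fold changes all lay between 0.828-fold and 1.19-fold.

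Levels are given as CPM, gene counts scaled to a common library size and adjusted between libraries by the trimmed mean of M values. Total counts ran from 14871367 to 24515138 per library. Libraries differed in the levels of markers of other cell types. The summed level of 10 choroid plexus markers ranged from 202 to 7141 CPM in Control and from 666 to 8686 CPM in NIHHL, with 10 of 10 fitted fold changes positive. Markers of ependymal cells summed to 45.4 to 80.1 CPM in Control and 78.2 to 96.0 CPM in NIHHL, again with 10 of 10 positive. Oligodendrocyte markers summed to 7293 to 9142 CPM in Control against 8398 to 9875 CPM in NIHHL, with 9 of 10 positive. The 10 neuronal markers, which include the subtype genes Slc17a7 and Gad1, are of the cells in which this scaffold is best known. They summed to 7152 to 7645 CPM in Control and 6652 to 7302 CPM in NIHHL, with 9 of 10 fold changes negative and 0 called. The 12 markers of hippocampal pyramidal and granule neurons ran the other way, with 7 of 12 positive (median log2 fold change 0.085) and sums of 1007 to 1211 CPM in Control and 1033 to 1290 in NIHHL. Astrocyte markers were positive in 10 of 10 (median 0.092), at 2813 to 3090 CPM against 2916 to 3305. None of these markers was called. The part of these marker differences in the values of the scaffold genes was not tested, and in bulk tissue fewer cells of a type and less RNA per cell cannot be told apart. Defining genes of hippocampal neurons were present throughout, with Prox1 of granule cells at 101 to 166 CPM and Fibcd1 of CA1 at 102 to 149 CPM over the 7 libraries. Wfs1, also on the hippocampal list, was at 65.7 CPM in Control replicate 2 and at 98.4 to 131 CPM in the other libraries. The 10 striatal markers summed to 159 to 196 CPM in Control and 171 to 211 in NIHHL. Of this the dopamine receptor gene Drd1 gave 3.30 to 5.56 CPM and the adenosine receptor gene Adora2a 0.519 to 1.38 CPM. Other genes of that list made up most of the sum. Thalamic markers summed to 212 to 246 CPM in Control and 225 to 232 in NIHHL. Neocortical markers summed to 191 to 263 CPM in Control and 189 to 233 in NIHHL. How much neighbouring tissue the libraries held was not tested. No gene of the 12 marker lists that was in the table was at 0 in every library.

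Genes within each of the 3 families are paralogs, so reads could in principle be divided among the genes of a family. In the GENCODE M21 transcripts, on GRCm38, no 2 scaffold genes shared an exact run of 50 bases. The longest run shared by any of the 45 pairs was a 34-base CA repeat in Dlg4 and Shank2. The runs below are the longest exact matches inside each family, shown as examples of stretches where 2 paralogs cannot be told apart by sequence. Other pairs within a family share shorter runs.
Dlg1 and Dlg2: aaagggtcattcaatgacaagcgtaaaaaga
Dlgap1 and Dlgap3: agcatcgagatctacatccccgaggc
Shank1 and Shank3: ctgctggacaaggggctggaccccaa
These runs are 31, 26 and 26 bases long. The DLG run was in 1 of 15 Dlg1 transcripts, in the coding part of 0, and in 3 of 17 Dlg2 transcripts, in the coding part of 2. The DLGAP run lay in the coding part of 8 of 20 Dlgap1 and 3 of 4 Dlgap3 transcripts and ended 13 bases before its end, in the stretch that encodes the C-terminal end bound by SHANK proteins. Sequence found in transcripts of genes outside the 3 families was rare: between 0% of the 50-base words of Dlg3, Dlgap2, Dlgap3 and Shank2 and 3.29% of those of Shank1. Most of the Shank1 share lay in 1700008O03Rik on the opposite strand, which shares 339 exon bases with it and stood at 0.220 to 0.461 CPM. The deposited counts were whole numbers in all 7 libraries for 8 of the 10 genes, the others being Dlg4 and Shank1.

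Among the DLG genes, Dlg4 encodes PSD-95, the principal DLG protein of the mature excitatory synapse (ENSMUSG00000020886, chromosome 11). Its level was 728, 688 and 629 CPM in Control replicates 1 to 3 and 701, 714, 697 and 696 CPM in NIHHL replicates 1 to 4. All 4 NIHHL libraries lay between the highest and the lowest Control library. The means were 681 ± 49.8 CPM in Control (SD, n = 3) and 702 ± 8.45 CPM in NIHHL (SD, n = 4), with a log2 fold change, NIHHL minus Control, of 0.043 (SE 0.066, 95% interval -0.10 to 0.19).

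Dlg2 encodes PSD-93, a close relative of PSD-95 at the same synapses (ENSMUSG00000052572, chromosome 7). It stood at 403, 314 and 355 CPM in Control and 328, 348, 334 and 388 in NIHHL, so Control replicates 1 and 2 were the extremes of all 7 libraries. The log2 fold change was -0.032 (SE 0.091). Dlg3, which encodes SAP102, a DLG protein prominent in early postnatal development (ENSMUSG00000000881, chromosome X), was at 225, 198 and 205 CPM in Control and 211, 209, 201 and 221 in NIHHL. Its groups overlapped throughout and the log2 fold change was 0.0081 (SE 0.067).

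Dlg1 encodes SAP97, a DLG protein that carries AMPA receptors and is also found in epithelia (ENSMUSG00000022770, chromosome 16). Its libraries read 114, 91.0 and 119 CPM in Control and 107, 106, 106 and 93.5 in NIHHL. Control replicate 2 and NIHHL replicate 4 were low and the other 5 libraries lay between 106 and 119 CPM. With a log2 fold change of -0.064 (SE 0.095, 95% interval -0.27 to 0.14), Dlg1 had the largest fitted difference of the 10 genes, and that interval held 0. Without Control replicate 2 its log2 fold change was -0.17, with an unadjusted edgeR p of 0.0493 and an adjusted p of 1.00.

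The DLGAP genes, the linkers between the layers, had fitted log2 fold changes between 0.0036 and 0.026. Dlgap1, the gene of GKAP (ENSMUSG00000003279, chromosome 17), was at 514, 449 and 438 CPM in Control and 464, 470, 445 and 494 in NIHHL. Control replicate 1 was the highest library and NIHHL replicate 4 the next. The log2 fold change was 0.0055 (SE 0.073), at 467 ± 41.0 CPM in Control and 468 ± 20.3 CPM in NIHHL (SD, n = 3 and n = 4). Dlgap2 (ENSMUSG00000047495, chromosome 8) had the lowest counts of the 10 genes, at 54.0, 47.4 and 46.4 CPM in Control and 50.9, 49.2, 47.7 and 52.4 in NIHHL. Its order of libraries resembled that of Dlgap1, and its log2 fold change was 0.026 (SE 0.077).

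Dlgap3 encodes SAPAP3, best known from the striatum, where its loss in mice is linked to compulsive grooming (ENSMUSG00000042388, chromosome 4). It varied least: 179, 177 and 171 CPM in Control and 179, 173, 179 and 174 in NIHHL. The coefficient of variation (SD over mean) across the 7 libraries was 1.79%, beside 1.74% from counting error alone at these counts. Among the 500 tested genes nearest to it in level, 0.4% varied less, and their median coefficient was 6.67%. Its log2 fold change was 0.0036 (SE 0.058, 95% interval -0.12 to 0.13), the narrowest interval of the set.

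The SHANK genes gave small positive fold changes, none past the test. Shank1, whose protein promotes the enlargement of dendritic spines (ENSMUSG00000038738, chromosome 7), was at 404, 310 and 327 CPM in Control and 368, 329, 357 and 379.5 in NIHHL. Control replicate 1 was above and Control replicates 2 and 3 were below every NIHHL library. The log2 fold change was 0.047 (SE 0.093). It became 0.17 without Control replicate 1, with an unadjusted edgeR p of 0.0480 and an adjusted p of 0.805, and -0.022 without Control replicate 2.

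Shank2 (ENSMUSG00000037541, chromosome 7) stood at 179, 149 and 150.1 CPM in Control and 163, 159, 164 and 172 in NIHHL. Shank3, the gene deleted in Phelan-McDermid syndrome (ENSMUSG00000022623, chromosome 15), stood at 247, 212 and 195 CPM in Control and 215, 215, 226 and 233 in NIHHL. In both genes, as in Shank1, Control replicate 1 was the highest of all libraries and the other Control libraries were the lowest. The log2 fold changes were 0.048 (SE 0.078) for Shank2 and 0.029 (SE 0.082) for Shank3. Without Control replicate 1 they were 0.14 and 0.13, and neither was called (edgeR, adjusted p for every scaffold gene of at least 0.805 without that library).

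**Figure D1:**
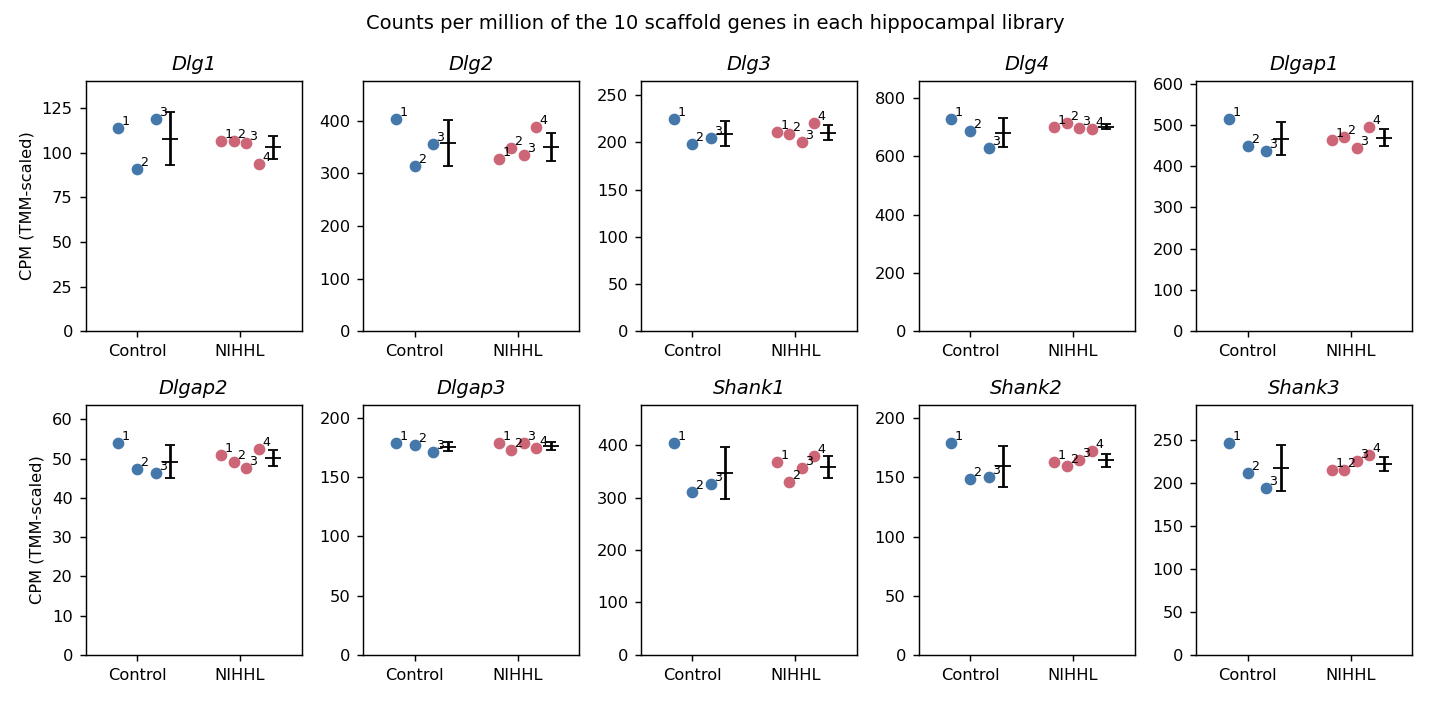
TMM-scaled CPM of each scaffold gene in each library, with Control libraries in blue, NIHHL libraries in red, replicate numbers beside the points and the mean ± SD in black. The 4 NIHHL libraries lie inside the range of the 3 Control libraries in 9 panels, and in Dlgap3 1 NIHHL library lies just above it.

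As a group, the 10 genes had log2 fold changes with a median of 0.017, beside a median of -0.00045 over all genes tested. The family medians were -0.012 for DLG, 0.0055 for DLGAP and 0.047 for SHANK, and 8 of the 10 values were positive. The genes share their libraries, and the number of positive values was 9 of 10 without Control replicate 1, 5 of 10 without Control replicate 2 and 3 of 10 without Control replicate 3. The summed level of the 10 genes was 2772 ± 237 CPM in Control (SD, n = 3) and 2805 ± 66.5 CPM in NIHHL (SD, n = 4). The groups overlapped for all 10 genes, so 0 were separated, while 5.2% of all genes tested had groups that did not overlap (2.84% with NIHHL above and 2.37% with NIHHL below).

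**Figure D2:**
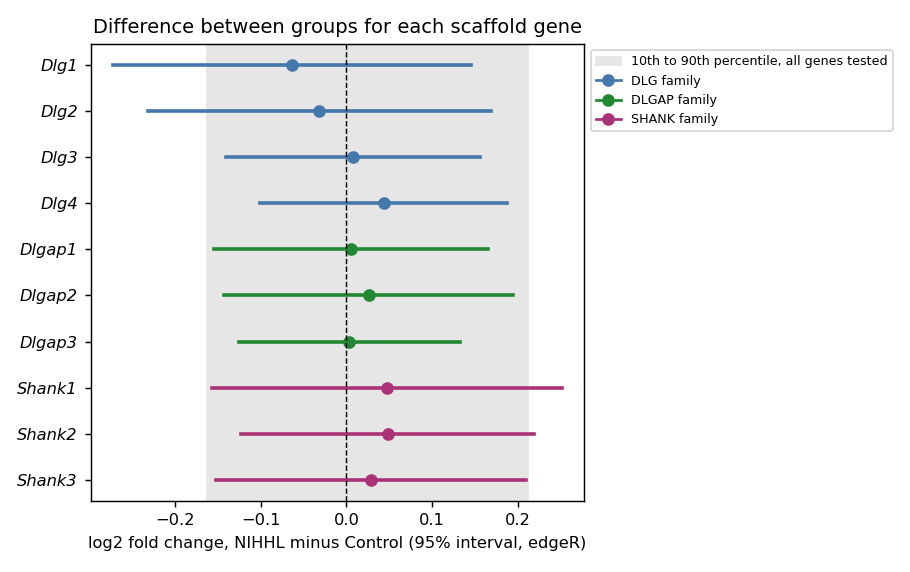
Log2 fold change of each scaffold gene (points) with its 95% interval (lines), coloured by family, NIHHL minus Control; the grey band holds the middle 80% of all genes tested. Every interval includes 0 and every point lies inside the band, between -0.064 and 0.048.

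The spread within the groups was the larger feature of these genes. In 9 of the 10, all 4 NIHHL libraries fell strictly inside the range of the 3 Control libraries, which was so for 17.4% of all genes tested. The SD was larger in Control than in NIHHL for all 10 genes, against 55% of all genes. Both counts rest largely on Control replicate 1, in which 8 of the 10 genes had their highest level. Without it, 1 gene lay inside the Control range and 5 had the larger SD in Control, with 7.37% and 45.1% of all genes. These counts are not 10 separate observations, since the genes share the libraries.

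The mean deviation of the 10 genes from their own average over libraries was 0.13 in Control replicate 1, -0.093 in Control replicate 2 and -0.060 in Control replicate 3 on the log2 scale. In NIHHL replicates 1 to 4 it was 0.0047, -0.013, -0.014 and 0.048. Dlg1 departed from the others in Control replicate 3, where it was at 0.18, and in NIHHL replicate 4, where it was at -0.16. Of the scaffold genes, 9 had more annotated exon than the median gene tested (4.54 kb), from 5.84 to 17.9 kb, and Dlgap3 had 4.52 kb. The libraries differed in a trend with this length. The Spearman correlation between a gene's deviation and its exon length, taken across 8382 genes that are not independent replicates, reached 0.52 in NIHHL replicate 4. It was 0.45 for Control replicate 1 and -0.58 for Control replicate 2. With a length offset fitted per library, the mean deviation of the 10 genes was 0.090 in Control replicate 1, -0.0051 in Control replicate 2 and -0.036 in NIHHL replicate 4, and the SD over libraries fell from 0.072 to 0.047. The median log2 fold change of the scaffold genes was then -0.0074, with 4 of 10 positive and 0 called.

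**Figure D3:**
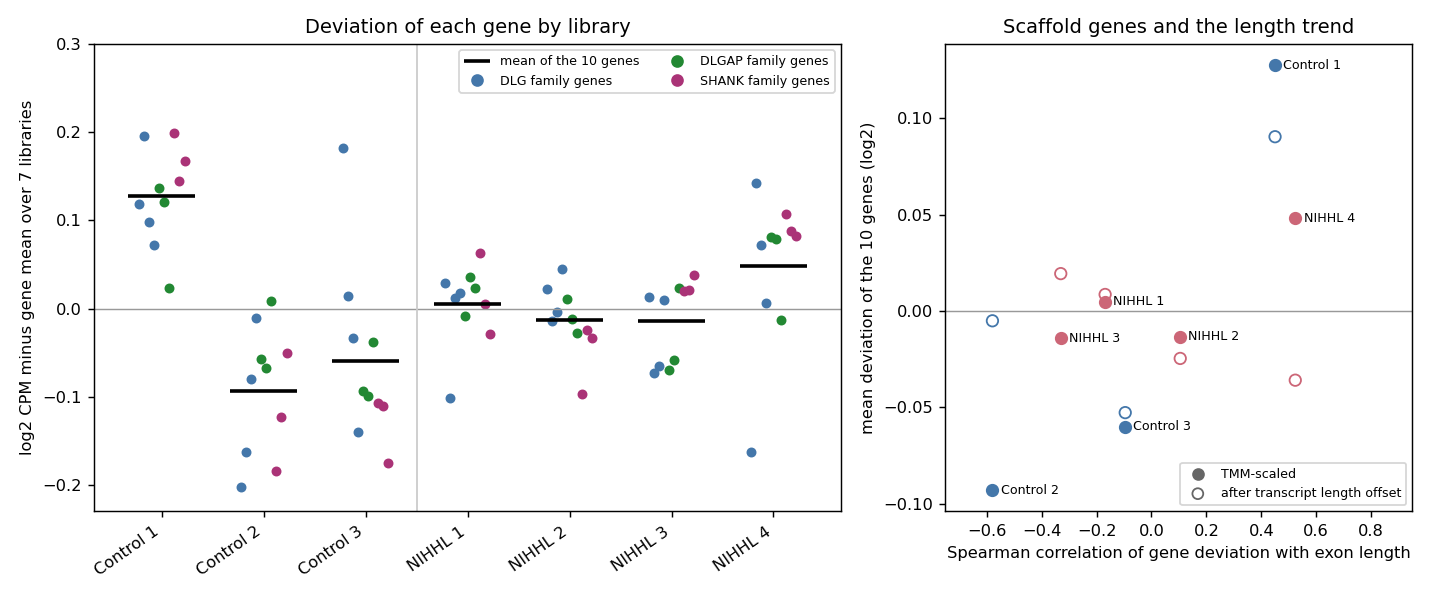
Left, deviation of each scaffold gene from its own mean log2 CPM in each library, coloured by family, with the mean of the 10 genes as a black bar. Right, that mean against the correlation of gene deviation with exon length in the same library (filled, TMM-scaled; open, after the length offset; Control blue, NIHHL red). Control replicate 1 stands highest at 0.13 before the offset and at 0.090 after it.

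The genes whose profile over the 7 libraries was most like the mean of the scaffold genes were Smarca2, Dpy19l3, Scn8a, Mbd5 and Sobp, at Pearson correlations of 0.997, 0.980, 0.973, 0.972 and 0.970. They were the highest of 8381 genes with a mean log2 CPM above 4. Smarca2 encodes a chromatin remodelling ATPase and Scn8a a neuronal sodium channel. All points share the same 7 libraries, and exon lengths of these genes ran from 5.53 to 19.6 kb, so the values describe likeness only.

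Levels can be compared between genes once divided by length. Per kb of annotated exon, averaged over the 7 libraries, Dlg4 was highest at 52.3 ± 2.37 CPM per kb (SD over 7 libraries). Dlgap3 followed at 38.9 ± 0.698, Dlg3 at 35.9 ± 1.67 and Shank1 at 33.6 ± 3.17 CPM per kb. Dlgap1 was at 26.1 ± 1.55, Shank3 at 23.98 ± 1.81 and Dlg2 at 21.7 ± 1.98 CPM per kb. Shank2 stood at 15.1 ± 1.02, Dlg1 at 9.79 ± 0.930 and Dlgap2 at 8.08 ± 0.462 CPM per kb. The ranges over libraries did not overlap between Dlg4 and Dlgap3, Shank1 and Dlgap1, Dlg2 and Shank2, or Shank2 and Dlg1, while those of the other 5 neighbouring pairs did.

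The middle of this order depended on the length used. Divided by the longest annotated transcript instead, Dlg4 stayed first at 109.6 and Dlgap2 last at 11.04 CPM per kb, but Dlgap1 rose to 65.2 and Dlg2 to 45.1 CPM per kb, above Dlgap3 at 41.8 and Dlg3 at 41.9. Shank1, at 36.0 CPM per kb by this length, was above Dlgap1 in 0 of the 7 libraries, so that separated pair changed order. Which isoforms the hippocampus used was not measured by these counts per gene.

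**Figure D4:**
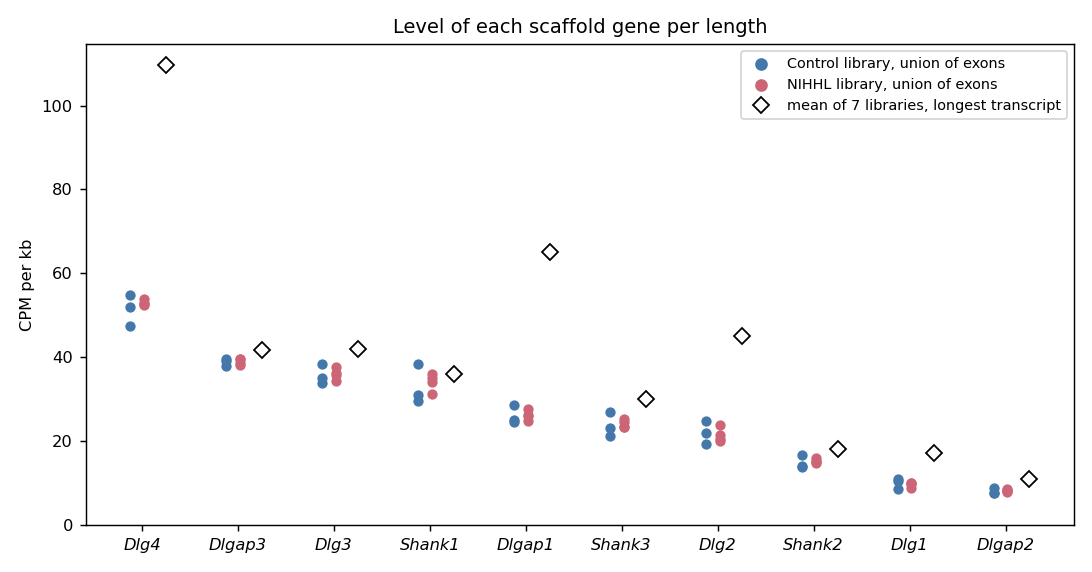
CPM per kb of annotated exon for each scaffold gene in each library (Control blue, NIHHL red), ordered by mean, with open diamonds for the mean when the longest transcript is the length. Dlg4 is highest and Dlgap2 lowest by both lengths, and Control and NIHHL points lie together in every gene.

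The balance within each family, described without a test, differed between group means by less than the Control SD for the genes given here. Of the summed level per kb of the 4 DLG genes, Dlg4 made up 43.2 ± 2.32% in Control and 44.1 ± 0.940% in NIHHL (SD, n = 3 and n = 4). Dlg3 made up 30.1 ± 0.303% and 29.99 ± 0.680%. Of the sum of Dlgap1, Dlgap2 and Dlgap3, without Dlgap4, Dlgap3 held 53.3 ± 1.73% in Control and 53.2 ± 1.36% in NIHHL. Among the SHANK genes Shank1 held 46.1 ± 1.46% and 46.3 ± 1.06%, and Shank3 held 33.2 ± 1.44% and 32.9 ± 0.772%. All these shares rest on the length of annotated exon, and their order within a family depends on that choice. Per kb of the longest transcript, Dlgap1 (65.2 CPM per kb) stood above Dlgap3 (41.8). By that length Dlg2 (45.1) also stood above Dlg3 (41.9).

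The genes around the scaffold were read from 4 lists of 91 genes, all of which were tested, and 0 were called in either direction (edgeR, adjusted p under 0.05). Of 26 other scaffolds of the postsynaptic density, 15 had positive and 11 negative fold changes, and their median was 0.015 on the log2 scale. The 3 with the smallest p were Dynll2, a dynein light chain that binds DLGAP1 (420.2 ± 9.29 CPM in Control, 375 ± 36.9 in NIHHL, log2 fold change -0.16, SE 0.079), Tanc1, a scaffold that binds PSD-95 (133 ± 17.9 and 152 ± 18.6 CPM, 0.19, SE 0.11), and the light chain Dynll1 (253 ± 34.1 and 228 ± 10.4 CPM, -0.15, SE 0.088). The lowest of their unadjusted p-values by edgeR was 0.0634. Leaving out 1 library at a time moved Dynll1 between -0.24 (without Control replicate 1) and -0.043 (without Control replicate 2). Tanc1 moved between 0.086 (without Control replicate 3) and 0.27 (without Control replicate 1) and was at 0.11 without NIHHL replicate 4. Dynll2 stayed between -0.22 and -0.12. Dlgap4, the remaining gene of the DLGAP family, was at 195 ± 12.2 CPM in Control and 193 ± 3.19 CPM in NIHHL, and it is named outside the rule that picked the others.

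Of 27 genes listed for receptors and adhesion proteins linked to DLG proteins, directly or through partners, 13 had positive and 14 negative fold changes (median -0.014). Those with the smallest p were Lrrc4c, the netrin-G ligand NGL-1 (log2 fold change -0.13, SE 0.085), the synaptic adhesion protein Lrrtm1 (-0.089, SE 0.070) and the AMPA receptor subunit Gria4 (-0.15, SE 0.13). Gria4 reached 36.9 CPM in Control replicate 2 and 54.6 and 55.0 CPM in the other Control libraries, with NIHHL at 42.5 to 46.5 CPM. Without Control replicate 2 its log2 fold change was -0.31 (edgeR, unadjusted p = 0.00155, adjusted p = 1.00). Without Control replicate 1 it was -0.064 and without Control replicate 3 it was -0.052. Lrrc4c moved to -0.077 and Lrrtm1 to -0.14 without Control replicate 3, and Lrrtm1 to -0.054 without Control replicate 2.

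Of 19 signalling enzymes and anchors held by the scaffold, 13 had positive and 6 negative fold changes (median 0.0056). The smallest p-values were those of the kinase anchor Akap5 (log2 fold change -0.15, SE 0.11), the kinase Cdk5 (-0.13, SE 0.11) and Iqsec1, an exchange factor of Arf proteins (0.073, SE 0.068). Akap5 was at -0.25 without Control replicate 2 (edgeR, unadjusted p = 0.0282, adjusted p = 1.00). It was at -0.081 when Control replicate 1 was left out and at -0.091 when NIHHL replicate 3 was. Without both Control replicate 2 and NIHHL replicate 4 it was at -0.30 (unadjusted p = 0.00402, adjusted p = 0.632). Cdk5 was at -0.22 without Control replicate 1 and at -0.013 without Control replicate 2. Leaving out NIHHL replicate 4 put it at -0.058. Iqsec1 was at 0.036 without NIHHL replicate 1 and 0.037 without Control replicate 2. The list of palmitoylation and turnover held 19 genes, among them palmitoyl transferases, thioesterases and the RNA regulators Fmr1, Ptbp1 and Ptbp2. Of these 19 genes, 9 were positive and 10 negative (median -0.015). Zdhhc14, a palmitoyl transferase, was at 33.3, 30.2 and 26.9 CPM in Control and 33.5, 32.5, 36.3 and 33.8 in NIHHL, with 3 NIHHL libraries above every Control library (log2 fold change 0.18, SE 0.089). Zdhhc8, another transferase, had a log2 fold change of -0.094 (SE 0.068) and the thioesterase Lypla2 one of -0.10 (SE 0.081). Without Control replicate 3 the value of Zdhhc14 was 0.10 and that of Lypla2 -0.17, and without Control replicate 2 that of Lypla2 was -0.015. None passed the test.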

How the data were processed

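The authors deposited expected counts per gene, unscaled, with Ensembl identifiers and symbols; 90.7% of the values were whole. Per the submitters' processing notes the tools were Bowtie2 2.2.8, HISAT2, StringTie 1.3.1 and DESeq2, with no role stated. No source used here names the genome build, the counting step or the strand setting. Counts were rounded, genes were filtered with edgeR's filterByExpr (minimum count 10), which left 14417 genes with 99.96% of the counts, and libraries were scaled by TMM. Groups were compared with edgeR 4.0.16 (quasi-likelihood, robust, group as the only term) in R 4.3.3, with Benjamini-Hochberg adjustment over all genes tested; SE was taken as |log2 fold change| over the root of edgeR's F. Log2 CPM carry a prior count of 2. Alternatives used DESeq2 1.42.0, limma 3.58.1 (voom), RLE or upper-quartile factors, no filter, a replicate block, a length offset (loess, span 0.5) and left-out libraries. Lengths, chromosomes and transcripts come from GENCODE M21 (GRCm38), which matched 99.3% of identifiers. The scripts were tested on simulated data.

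The scaffold genes and the gene lists were chosen with earlier results of these data known. Named genes were the 10 scaffold genes, the 3 genes with the smallest p in each surrounding list, and the 5 genes most like the scaffold mean. Libraries of 1 group differed by 7.69 to 28.98 times the sampling noise (chi-square per degree of freedom), so none was a repeat sequencing of another in its group. These values cannot show whether the libraries came from different animals. Counting errors cover counting only, because reads carry no molecular identifiers.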

Additional observations from a re-analysis of the deposited data

Results flagged for a closer look

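For 22 genes (the 10 scaffold genes and the 12 named around them) the 4 NIHHL libraries were examined for 1 value far from the rest by Dixon's criterion, which flags about 1 in 20 groups by chance. There were 2 such values, both in NIHHL replicate 4. Dlg1, the gene of SAP97, was at 93.5 CPM there, with the next library at 106 CPM (gap over range 0.912, limit 0.829). Cdk5, a kinase of the postsynaptic density, was at 55.97 CPM there, with the next at 68.7 CPM (0.906). NIHHL replicate 4 was also the library with the strongest positive length trend (0.52). The length offset took the log2 fold change of Dlg1 from -0.064 to -0.093 and that of Cdk5 from -0.13 to -0.11. Whether the trend bears on either low value was not tested.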

How the results depend on the processing

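Under 15 alternatives the number of scaffold genes called remained 0, with a smallest adjusted p of 0.657, and their median log2 fold change moved by less than the SD of that median between libraries of a group (0.084), between -0.032 and 0.086. Over all genes, 0 were called except 4 by DESeq2 and 1 without both Control replicate 2 and NIHHL replicate 4. The sign of the small fold changes was not stable: 27 of 150 values had the opposite sign, and every scaffold gene had at least 1. Leaving out both of those libraries gave -0.049 for Dlg3, -0.045 for Dlgap1, -0.019 for Dlgap2, -0.053 for Shank1, -0.017 for Shank2, -0.0088 for Shank3, 0.017 for Dlgap3 and 0.055 for Cdk5, and -0.17 for Dlg2 (unadjusted p = 0.0346 by edgeR). The length offset gave -0.012 for Dlg3, -0.042 for Dlgap1, -0.012 for Dlgap3 and -0.0032 for Shank3. Leaving out 1 library at a time gave ranges of -0.17 to 0.013 for Dlg1, -0.11 to 0.063 for Dlg2, -0.024 to 0.061 for Dlg3, -0.011 to 0.093 for Dlg4, -0.039 to 0.080 for Dlgap1, -0.016 to 0.095 for Dlgap2, -0.014 to 0.016 for Dlgap3, -0.022 to 0.17 for Shank1, 0.0069 to 0.14 for Shank2, -0.22 to -0.013 for Cdk5 and -0.046 to 0.13 for Shank3. The cause was not tested.

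Replicate numbers are shared between the groups. Deviations from the group mean in same-numbered libraries correlated across genes at -0.45, -0.44 and 0.061. Among differently numbered libraries, Control replicate 2 and NIHHL replicate 1 reached 0.48. With so few libraries, and deviations tied to each group's own mean, these values cannot decide whether the number marks a pair or a batch. With a replicate block, 0 genes and 0 scaffold genes were called, and the median was 0.0062, with -0.014 for Dlg3 and -0.018 for Dlgap1. For Dlgap3 the spread over libraries (1.79%) was close to counting error (1.74%).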
